A study of Mus musculus with 20 samples.

Results

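Toll-like receptors are membrane proteins of the innate immune system that bind molecules of microbes and of damaged cells. The members described here are 10 genes chosen by symbol: Tlr1, Tlr2, Tlr4, Tlr5 and Tlr6, which encode receptors of the cell surface, and Tlr3, Tlr7, Tlr8, Tlr9 and Tlr13, which encode receptors of endosomes. All 10 were present among the 24421 genes counted in each library, and all 10 were among the 13960 genes that passed the filter on low counts. Their transcripts were followed over 20 RNA libraries from C57BL/6JRj mice, with 4 libraries in each of 5 macrophage populations. The populations were peritoneal macrophages (from the abdominal cavity), choroid plexus macrophages (from the tissue that makes cerebrospinal fluid), MHC II-high and MHC II-low macrophages of the dura (the outer membrane around the brain), and microglia (the macrophages of the brain tissue itself). The titles of the MHC II-low dura libraries say "int" where their cell type label says "lo". Microglia are numbered 1, 3, 4 and 5, and the other populations 1 to 4. No treatment, transgene or age is given in the labels, and they do not say how the cells were isolated or whether the libraries of a population came from separate animals, so p-values measure the spread between these libraries, which may be technical. The series belongs to a study of macrophage identity in the brain and at its borders, and the comparisons here ask how the receptors differ between these tissues.

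Toll-like receptors work as dimers and signal through adaptor proteins, chiefly MyD88 and, for Tlr3 and Tlr4, TRIF (the product of Ticam1). Surface receptors bind parts of microbial cell walls and flagella. Endosomal receptors bind nucleic acids, need the membrane protein UNC93B1 to leave the endoplasmic reticulum, and are cut by lysosomal proteases before they signal. In the brain, microglia and the macrophages of its borders are the main cells known to carry these receptors.

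The receptor genes lie on 7 chromosomes of the mm10 genome (GENCODE release M21), and all are protein-coding. Tlr1 (chr5:64924679-64933563) and Tlr6 (chr5:64952031-64960097) are neighbours on the minus strand, 18467 bases apart. Both encode partners of the Tlr2 protein, and their transcripts share stretches that matter for counting: of the 75-base stretches of the annotated exons, 10.6% of those of Tlr1 and 9.25% of those of Tlr6 occurred in another gene, and 340 were common to Tlr1 and Tlr6. The longest identical run is 229 bases, lies within a single coding exon of each gene (Tlr1 chr5:64925537-64925765, Tlr6 chr5:64953828-64954056, both minus strand), and is shown because reads from it cannot be assigned to either gene:
Tlr1 and Tlr6 shared coding run: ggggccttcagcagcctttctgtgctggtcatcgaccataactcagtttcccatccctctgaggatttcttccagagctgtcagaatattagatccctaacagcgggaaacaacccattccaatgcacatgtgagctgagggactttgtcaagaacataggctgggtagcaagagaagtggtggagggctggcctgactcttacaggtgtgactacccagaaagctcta
How the counting program treated such reads is not given in the sources used here, so the balance between Tlr1 and Tlr6 is uncertain. Of the Tlr3 exons, 7.32% are overlapped by an antisense gene, Gm45542, and without a stated strand setting reads of the pair cannot be told apart. No other receptor shared a 75-base stretch or exon bases with another annotated gene.

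Each library held 13383274–32611875 gene counts, and choroid plexus and microglia libraries were the shallower ones, at 13383274–16052955 and 15312617–17156227. Levels are in CPM, that is, per 1e+06 gene counts after TMM adjustment of library sizes, and 3 counts in a library correspond to 0.0964–0.222 CPM. Most marker levels went with the labels: microglia markers summed to 27300–36900 CPM in microglia and to 375–9240 CPM elsewhere, large peritoneal macrophage markers to 4710–7500 CPM in peritoneal libraries and to at most 135 CPM elsewhere, and MHC class II genes to 52600–59100 CPM in MHC II-high dura libraries, against 2100–2330 CPM in those of MHC II-low dura. MHC class II genes also summed to 43700–61600 CPM in choroid plexus and 484–4670 CPM in peritoneal libraries. Choroid plexus libraries had 7830–9240 CPM of microglia markers. Border macrophage markers summed to 2690–3050 CPM in choroid plexus, 4240–5320 in MHC II-high dura and 7160–7430 in MHC II-low dura libraries. Those markers had 782–1890 CPM in peritoneal libraries and 17.4–23.6 CPM in microglia. Choroid plexus epithelium markers (7 genes, none at 0) summed to 3920–7390 CPM in choroid plexus libraries, and microglia replicate 3 had 20100 CPM of them, against 64.9–707 CPM in the other microglia. Microglia replicate 3 was the lowest of its population for 8 of the 10 receptors, as was choroid plexus replicate 4 for 8 receptors of its own. Interferon response genes (11 genes, none at 0) summed to 225–1240 CPM in peritoneal, 1300–1650 in choroid plexus, 1060–3180 in MHC II-high dura, 1140–2840 in MHC II-low dura and 162–1120 CPM in microglia libraries. Markers of neutrophils, of T and NK cells and of mesothelium stayed at or below 5.59 CPM in sum. Fibroblast markers (5 genes) summed to 0–0.328 CPM in peritoneal libraries, with Dcn, Lum and Pdgfra at 0, and to 249–849 in choroid plexus, 135–238 in MHC II-high dura, 120–171 in MHC II-low dura and 2.18–97.5 CPM in microglia libraries. Endothelium markers reached 67.2 CPM, astrocyte markers 81.3 CPM, dendritic cell markers 72.7 CPM and neuron markers 7.01 CPM. The part of such cells in the receptor levels was not tested. In bulk libraries, fewer cells of a type and less RNA per cell cannot be told apart.

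Peritoneal macrophages had the lowest mean level of 7 of the 10 receptors. Tlr8 was lowest in microglia, Tlr13 in MHC II-low dura, and Tlr4 averaged 151 CPM in peritoneal macrophages and in microglia alike. Against each brain population the surface receptors Tlr1, Tlr2 and Tlr5 and the endosomal receptors Tlr3, Tlr7 and Tlr9 were lower in peritoneal macrophages, and Tlr8 was lower than in all but microglia. A gene was called at a Benjamini-Hochberg adjusted p under 0.05 in edgeR's quasi-likelihood test, with adjustment over all 13960 genes, and at least a 2-fold difference. Against choroid plexus macrophages 7 receptors were called lower in peritoneal macrophages and 0 higher, where 24.1% of all genes were called lower and 12.6% higher. Against MHC II-high dura the counts were again 7 lower and 0 higher, where 20.1% of all genes were called lower and 9.18% higher. Against MHC II-low dura they were 7 lower and 0 higher, beside 20% of all genes lower and 11.9% higher. Against microglia 6 receptors were called lower and 1, Tlr8, higher, beside 25.7% of all genes lower and 18.9% higher. In these 4 comparisons the median log2 fold change of the 10 receptors lay between -2.03 and -1.47, and that of all genes between -0.13 and -0.10. At an unadjusted p under 0.05, no receptor was higher in peritoneal macrophages than in choroid plexus or MHC II-high dura macrophages, and 1 was higher than in MHC II-low dura, Tlr13; DESeq2 called none of them higher. The comparisons share the peritoneal libraries.

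**Figure D1:**
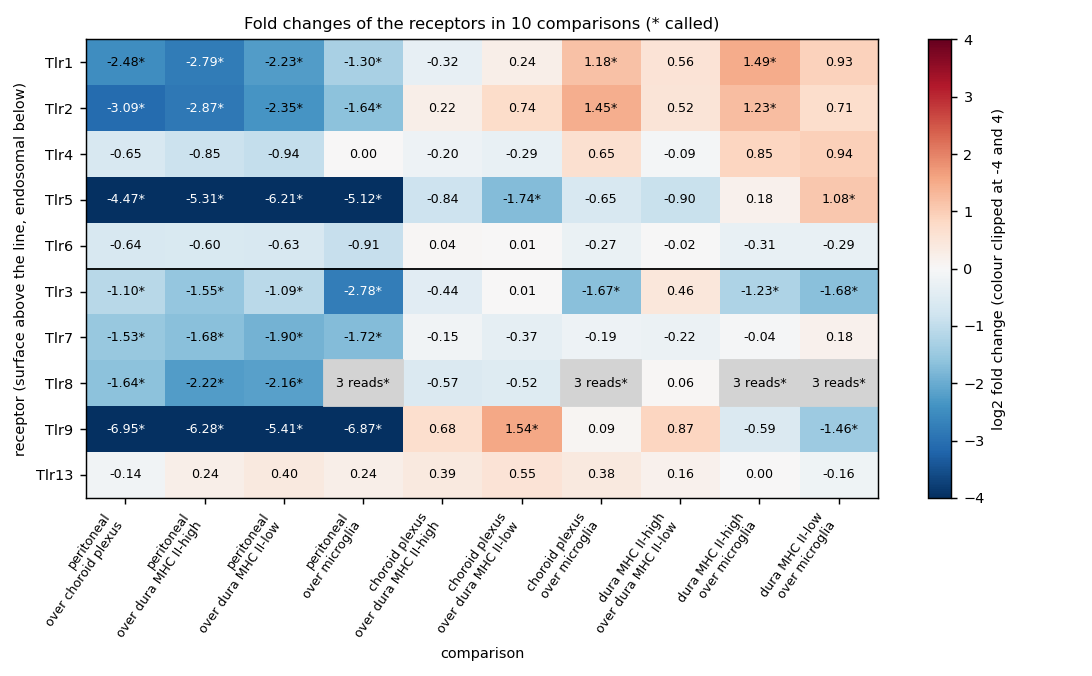
Log2 fold changes of the 10 receptors (rows) in the 10 comparisons between populations (columns, first population over second), with an asterisk on called differences and the colour clipped at -4 and 4. Grey cells mark Tlr8 against microglia, which held 3 reads in all. Most called differences stand in the 4 peritoneal columns, and Tlr4, Tlr6 and Tlr13 have no call.

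Among the brain populations fewer receptors differed. Choroid plexus and MHC II-high dura macrophages differed in 0 of 10 receptors by the call rule, where 5.87% of all genes were called higher and 4% lower in the choroid plexus (unadjusted p under 0.05 for 1 receptor higher and 3 lower, and 0 calls by DESeq2). MHC II-high and MHC II-low dura macrophages also differed in 0 of 10, beside 2.39% of all genes higher and 1.48% lower in MHC II-high (unadjusted p under 0.05 for 2 higher and 1 lower, and 0 calls by DESeq2). Choroid plexus against MHC II-low dura macrophages gave 1 receptor higher, Tlr9, and 1 lower, Tlr5, beside 8.63% and 4.18% of all genes. Choroid plexus against microglia gave 3 higher (Tlr1, Tlr2 and Tlr8) and 1 lower (Tlr3), beside 12.1% and 7.11% of all genes. MHC II-high dura against microglia gave the same 3 higher and Tlr3 lower, beside 15.7% and 12.2% of all genes. MHC II-low dura against microglia gave 2 higher (Tlr5 and Tlr8) and 2 lower (Tlr3 and Tlr9), beside 13.8% and 12.7% of all genes. Median log2 fold changes of the receptors in these 6 comparisons lay between -0.17 and 0.45, and those of all genes between 0.01 and 0.09.

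**Figure D2:**
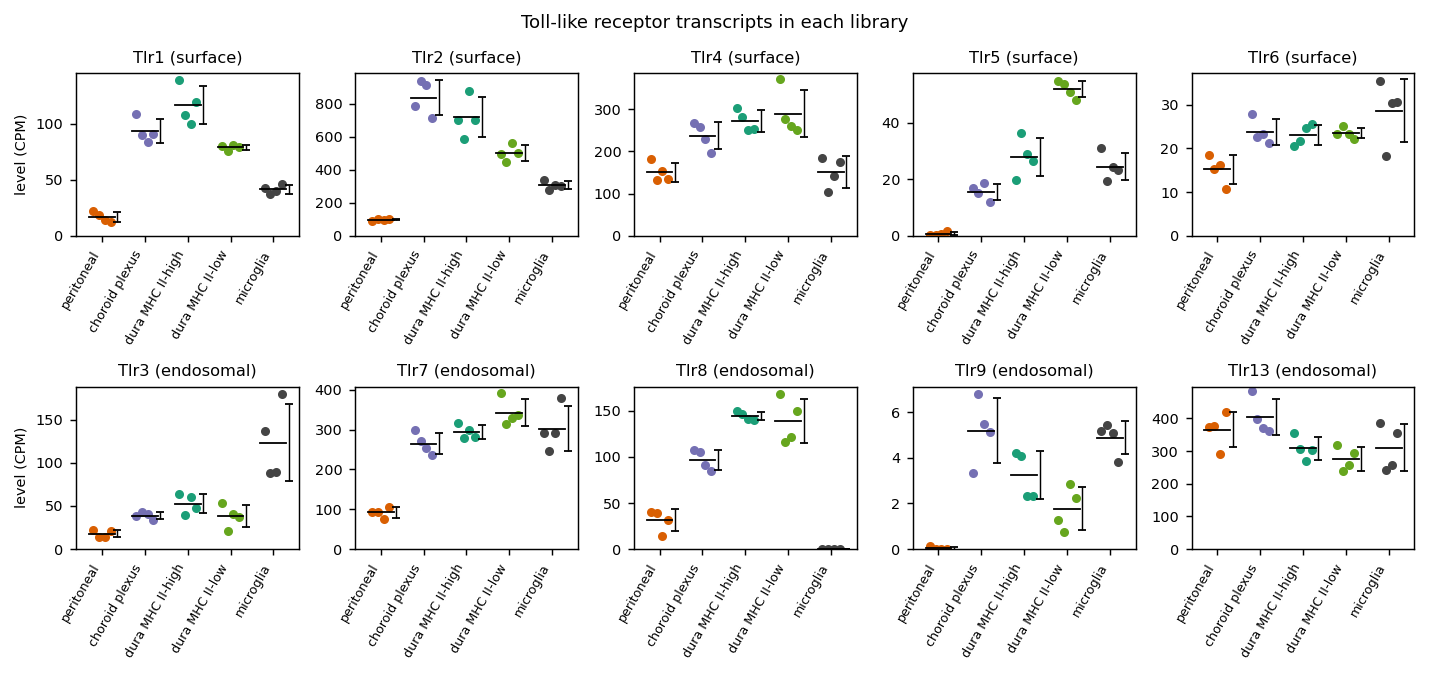
Level of each receptor in CPM (y axis, linear, from 0, with its own scale in each panel) in the 4 libraries of each population (points), with the mean (line) and SD (bar). Peritoneal libraries lie below all others for Tlr1, Tlr2, Tlr5, Tlr7 and Tlr9, and microglia lie at or near 0 for Tlr8.

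Tlr2, the surface receptor for bacterial lipoproteins, was the surface receptor with the highest level in the 4 brain populations. Peritoneal libraries had 91.8, 103, 95.3 and 103 CPM, choroid plexus 785, 937, 910 and 715 CPM, MHC II-high dura 702, 588, 878 and 702 CPM, MHC II-low dura 496, 449, 563 and 501 CPM, and microglia 337, 279, 310 and 299 CPM. The peritoneal libraries lay below all others, and microglia below all border libraries. Means were 98.4 ± 5.79 CPM in peritoneal, 837 ± 105 in choroid plexus, 718 ± 120 in MHC II-high dura, 502 ± 46.7 in MHC II-low dura and 306 ± 24.2 CPM in microglia (SD, n = 4 each), an 8.51-fold span. Tlr2 was lower in peritoneal macrophages than in choroid plexus macrophages by a log2 fold change of -3.09 ± 0.12 (adjusted p = 3.3e-14) and than in microglia by -1.64 ± 0.12 (adjusted p = 1.55e-10). The value after ± is an approximate standard error, the fold change divided by the square root of the F statistic. Tlr2 was higher than in microglia in choroid plexus (1.45 ± 0.12, adjusted p = 3.32e-09) and in MHC II-high dura macrophages (1.23 ± 0.12, adjusted p = 2.36e-08), and by less than 2-fold in MHC II-low dura (0.71 ± 0.12, adjusted p = 3.14e-05). In the order of levels, choroid plexus and MHC II-high dura were neighbours that did not pass the test (0.22 ± 0.11, adjusted p = 0.162), and the dura populations differed by less than 2-fold, with no overlap between their libraries (0.52 ± 0.11, adjusted p = 0.00514).

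Tlr1, which pairs with Tlr2 to bind triacylated lipoproteins, had the same populations at the low end. Peritoneal libraries had 22.2, 18.9, 14.1 and 12 CPM, choroid plexus 109, 90.2, 84.2 and 91.1 CPM, MHC II-high dura 139, 108, 100 and 120 CPM, MHC II-low dura 80.1, 76.2, 81.5 and 79.0 CPM, and microglia 43.1, 37.0, 39.8 and 45.9 CPM. The peritoneal, microglia and border libraries formed 3 ranges that did not overlap. Peritoneal macrophages were lower than MHC II-high dura macrophages by -2.79 ± 0.16 on the log2 scale (adjusted p = 7.3e-12) and than microglia by -1.30 ± 0.15 (adjusted p = 2.18e-07). Tlr1 was higher than in microglia in choroid plexus (1.18 ± 0.15, adjusted p = 2.13e-06) and in MHC II-high dura (1.49 ± 0.15, adjusted p = 5.62e-08), and below the 2-fold limit in MHC II-low dura (0.93 ± 0.15, adjusted p = 2.61e-05). Neither choroid plexus against MHC II-high dura (adjusted p = 0.115) nor choroid plexus against MHC II-low dura (adjusted p = 0.231) passed the test. Between the dura populations Tlr1 was higher in MHC II-high by less than 2-fold, with no overlap between their libraries (0.56 ± 0.15, adjusted p = 0.016).

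Tlr6, the partner of Tlr2 for diacylated lipoproteins, was low and even. Peritoneal libraries had 18.5, 15.3, 16.3 and 10.7 CPM, choroid plexus 27.9, 22.6, 23.2 and 21.2 CPM, MHC II-high dura 20.5, 21.7, 24.6 and 25.5 CPM, MHC II-low dura 23.3, 25.0, 23.3 and 22.2 CPM, and microglia 35.3, 18.3, 30.3 and 30.7 CPM. The 4 brain populations overlapped, and microglia replicate 3 was the lowest brain library. Tlr6 was called in no comparison. Its largest difference was between peritoneal macrophages and microglia (-0.91 ± 0.18, adjusted p = 0.000115), which passed the 2-fold limit without peritoneal replicate 1 (-1.02) or without microglia replicate 3 (-1.11). Per length, the level of Tlr1 was 1.23 ± 0.188 times that of Tlr6 in peritoneal, 4.42 ± 0.313 times in choroid plexus, 5.72 ± 1.29 times in MHC II-high dura, 3.77 ± 0.254 times in MHC II-low dura and 1.68 ± 0.398 times in microglia libraries (SD, n = 4 each). These ratios rest on 2 genes that share the coding run printed above.

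Tlr4, the lipopolysaccharide receptor, varied less than 2-fold. Peritoneal libraries had 182, 133, 154 and 135 CPM, choroid plexus 267, 257, 230 and 197 CPM, MHC II-high dura 303, 282, 250 and 253 CPM, MHC II-low dura 372, 276, 260 and 251 CPM, and microglia 185, 103, 142 and 176 CPM. Every border library lay above every peritoneal and microglia library. The differences stayed under the 2-fold limit, with log2 fold changes of -0.94 ± 0.16 for peritoneal over MHC II-low dura (adjusted p = 6.24e-05) and 0.94 ± 0.16 for MHC II-low dura over microglia (adjusted p = 8.62e-05). The first passed the limit without peritoneal replicate 1 (-1.04) and the second without microglia replicate 1 (1). Peritoneal macrophages and microglia had the same mean, 151 ± 22.9 and 151 ± 37.2 CPM, and the border populations did not pass the test between neighbours (adjusted p = 0.403 and 0.796).

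Tlr5, the flagellin receptor, was close to the limit of detection in peritoneal macrophages. They had 12, 11, 15 and 36 reads, or 0.415, 0.401, 0.517 and 1.54 CPM. Choroid plexus libraries had 16.8, 15.2, 18.5 and 11.8 CPM, MHC II-high dura 19.7, 36.3, 29.0 and 26.4 CPM, MHC II-low dura 54.7, 53.6, 50.9 and 48.2 CPM, and microglia 30.9, 19.5, 24.4 and 23.1 CPM. MHC II-low dura libraries were the highest, above every other library. The log2 fold change of peritoneal macrophages was -4.47 ± 0.32 against choroid plexus (adjusted p = 3.24e-10), -5.31 ± 0.32 against MHC II-high dura (adjusted p = 3.41e-11), -6.21 ± 0.33 against MHC II-low dura (adjusted p = 3.64e-12) and -5.12 ± 0.32 against microglia (adjusted p = 2.63e-11). Without peritoneal replicate 4 these were -5.08, -5.92, -6.81 and -5.79. Tlr5 was lower in choroid plexus than in MHC II-low dura macrophages (-1.74 ± 0.26, adjusted p = 4.77e-05), and higher in MHC II-low dura than in microglia (1.08 ± 0.25, adjusted p = 0.00137), a difference under 2-fold without microglia replicate 3 (0.92) or 5 (0.99). Between the dura populations it was lower in MHC II-high by -0.90 ± 0.25 (adjusted p = 0.0238), which is under the 2-fold limit and passed it without MHC II-high replicate 2 (-1.05).

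Among the endosomal receptors, Tlr8 had the widest range. It senses single-stranded RNA in human cells, and the gene (chrX:167242696-167264329, minus strand) lies 40599 bases from Tlr7 (chrX:167304929-167330558, minus strand). Peritoneal libraries had 39.8, 38.9, 14.0 and 31.5 CPM, choroid plexus 107, 105, 90.9 and 84.7 CPM, MHC II-high dura 150, 147, 141 and 140 CPM, and MHC II-low dura 168, 116, 122 and 150 CPM. Microglia had 3 reads in replicate 1 (0.188 CPM) and 0 in replicates 3, 4 and 5. Microglia thus lay below every other library, and peritoneal libraries below every border library. With 3 reads on one side, the ratio of levels over microglia was 665 (95% exact interval 228–3230) for peritoneal, 2080 (712–10100) for choroid plexus, 3110 (1060–15100) for MHC II-high dura and 2970 (1020–14400) for MHC II-low dura macrophages, intervals that cover counting error only. Without microglia replicate 1 the ratios were at least 501, 1570, 2340 and 2240, against a floor of 3 counts over the 3 libraries left. All 4 differences were called, with adjusted p between 4.74e-13 and 6.49e-12. Peritoneal macrophages were lower than choroid plexus by -1.64 ± 0.25 (adjusted p = 1.22e-05) and than MHC II-high dura by -2.22 ± 0.25 (adjusted p = 4.26e-07). The 3 border populations did not pass the test among themselves (adjusted p = 0.0849, 0.113 and 0.926). Every choroid plexus library nevertheless lay below every dura library, with log2 fold changes of -0.57 ± 0.24 against MHC II-high and -0.52 ± 0.24 against MHC II-low dura.

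Tlr7, the neighbouring gene and a receptor for single-stranded RNA, did not share the near-absence in microglia. Peritoneal libraries had 92.7, 93.8, 75 and 106 CPM, choroid plexus 298, 272, 254 and 235 CPM, MHC II-high dura 317, 279, 299 and 282 CPM, MHC II-low dura 392, 313, 329 and 336 CPM, and microglia 292, 245, 292 and 379 CPM. The peritoneal libraries stood apart, and the brain populations spanned 1.30-fold in their means. The log2 fold change of peritoneal macrophages was -1.53 ± 0.13 against choroid plexus (adjusted p = 2.28e-09), -1.68 ± 0.13 against MHC II-high dura (adjusted p = 6.71e-10), -1.90 ± 0.13 against MHC II-low dura (adjusted p = 9.5e-11) and -1.72 ± 0.13 against microglia (adjusted p = 2.32e-10). Among brain populations the largest difference was a lower level in choroid plexus than in MHC II-low dura (-0.37 ± 0.12, adjusted p = 0.0279), under the 2-fold limit. Per length, the level of Tlr8 was 0.378 ± 0.129 times that of Tlr7 in peritoneal, 0.418 ± 0.0157 in choroid plexus, 0.559 ± 0.0297 in MHC II-high dura and 0.460 ± 0.0448 in MHC II-low dura libraries, against at most 0.000732 in microglia.

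Tlr13, a mouse receptor for bacterial ribosomal RNA, had the narrowest range of means over the 5 populations. Peritoneal libraries had 373, 378, 291 and 420 CPM, choroid plexus 485, 399, 372 and 362 CPM, MHC II-high dura 356, 307, 271 and 302 CPM, MHC II-low dura 318, 238, 256 and 294 CPM, and microglia 387, 242, 256 and 355 CPM. Among the brain populations alone Tlr6 (1.24-fold) and Tlr7 (1.30-fold) spanned less. The Tlr13 means spanned 1.46-fold, with choroid plexus highest at 404 ± 55.9 CPM and MHC II-low dura lowest at 277 ± 36.1 CPM. No comparison reached 2-fold. The largest was choroid plexus over MHC II-low dura, where libraries did not overlap (0.55 ± 0.15, adjusted p = 0.0104), and no pair of neighbours in the order of levels passed the test (adjusted p between 0.167 and 0.985).

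The promoters of Tlr2, Tlr8 and Tlr13 are shown because these are the surface receptor with the largest part of the summed level and the endosomal receptors with the widest and the narrowest range. The windows hold 250 bases before and 50 after the annotated start (RefSeq, GRCm38.p6), read on the gene's strand. Capitals mark matches, on either strand, to the ETS core GAGGAA, an AP-1 motif TGANTCA, a kappa-B motif of GGG and CC with 5 free bases between them, an interferon-stimulated response element and a composite ETS-IRF motif.
Tlr2 (chr3:83841559-83841858, minus strand): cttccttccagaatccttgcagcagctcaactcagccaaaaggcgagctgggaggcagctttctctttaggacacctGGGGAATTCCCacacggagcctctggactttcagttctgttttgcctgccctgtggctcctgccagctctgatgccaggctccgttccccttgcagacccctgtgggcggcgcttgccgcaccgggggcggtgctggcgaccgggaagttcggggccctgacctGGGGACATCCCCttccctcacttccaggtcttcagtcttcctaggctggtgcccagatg
Tlr8 (chrX:167264280-167264579, minus strand): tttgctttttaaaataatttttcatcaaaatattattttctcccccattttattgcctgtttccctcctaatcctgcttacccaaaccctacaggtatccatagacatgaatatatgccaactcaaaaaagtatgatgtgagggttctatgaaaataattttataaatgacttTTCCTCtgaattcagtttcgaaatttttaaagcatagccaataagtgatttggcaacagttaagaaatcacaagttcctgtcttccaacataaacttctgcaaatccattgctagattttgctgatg
Tlr13 (chrX:106143025-106143324, plus strand): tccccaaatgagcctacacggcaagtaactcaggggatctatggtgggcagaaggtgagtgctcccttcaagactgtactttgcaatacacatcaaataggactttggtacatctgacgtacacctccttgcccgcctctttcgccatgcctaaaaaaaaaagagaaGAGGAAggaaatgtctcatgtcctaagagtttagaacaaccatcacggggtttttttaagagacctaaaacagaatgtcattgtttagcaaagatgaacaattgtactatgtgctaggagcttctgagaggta
Both capital stretches of Tlr2 are kappa-B matches. Their 7 matches overlap within each stretch, and bases that match on both strands are counted once per strand. Of 32851 mouse promoters, 50.8% hold a kappa-B match. Tlr8 and Tlr13 each have a single ETS core match, the first base 77 and 83 bases before the start, and 28.3% of promoters hold 1 or more. Interferon-stimulated elements, AP-1 motifs and ETS-IRF motifs occur in 3.44%, 7.81% and 2.72% of promoters, and none is in these 3 windows. Of the 10 receptors, 8 matched the promoter table. Matches of letters are descriptions and were not tested as binding sites.

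Tlr3, the receptor for double-stranded RNA, was highest in microglia. Peritoneal libraries had 22.5, 14.3, 14.2 and 21.1 CPM, choroid plexus 38.4, 42.7, 40.6 and 33.3 CPM, MHC II-high dura 63.3, 39.7, 60.1 and 47.7 CPM, MHC II-low dura 53.5, 21.4, 41.2 and 37.5 CPM, and microglia 137, 87.7, 89.0 and 180 CPM. Every microglia library lay above every other library, and microglia also had the widest spread, 123 ± 44.1 CPM. The log2 fold change over microglia was -2.78 ± 0.28 in peritoneal (adjusted p = 4.6e-08), -1.67 ± 0.27 in choroid plexus (adjusted p = 4.72e-05), -1.23 ± 0.26 in MHC II-high dura (adjusted p = 0.000647) and -1.68 ± 0.27 in MHC II-low dura macrophages (adjusted p = 3.24e-05). The highest Tlr3 in microglia was in replicate 5, which also had the highest interferon gene sum of its population, 1120 CPM against 162–198 CPM in the other 3. Without that library the values were -2.57, -1.5, -1.06 and -1.52, and all 4 remained called. Peritoneal macrophages were lower than MHC II-low dura macrophages by -1.09 ± 0.26 (adjusted p = 0.00171), a difference at or under 2-fold when peritoneal replicate 2 (-1), peritoneal replicate 3 (-0.99) or MHC II-low replicate 1 (-0.89) was left out. The border populations did not pass the test among neighbours (adjusted p = 0.222 and 0.978).

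Tlr9, the receptor for unmethylated CpG DNA, had the lowest mean of the 10 receptors in the 3 border populations and in peritoneal macrophages. In microglia Tlr8 was lower. Peritoneal libraries had 4, 0, 0 and 0 reads, the first 0.138 CPM. Choroid plexus had 3.33, 6.79, 5.49 and 5.15 CPM, MHC II-high dura 4.21, 4.1, 2.35 and 2.32 CPM, MHC II-low dura 1.29, 0.739, 2.86 and 2.22 CPM, and microglia 5.2, 5.43, 5.09 and 3.83 CPM. Peritoneal libraries lay below all others. The level was 142 times that of peritoneal macrophages in choroid plexus (95% exact interval 55–526), 89.4 times in MHC II-high dura (34.6–330), 47.4 times in MHC II-low dura (18.2–176) and 133 times in microglia (51.6–493), and without peritoneal replicate 1 at least 139, 87.5, 46.4 and 131 times. Tlr9 was higher in choroid plexus than in MHC II-low dura macrophages (1.54 ± 0.52, adjusted p = 0.0295), and lower in MHC II-low dura than in microglia (-1.46 ± 0.51, adjusted p = 0.0232). The first call was lost when choroid plexus replicate 2, 3 or 4, or MHC II-low replicate 1 or 2, was left out (adjusted p 0.0553–0.0827), and the second without MHC II-low replicate 1 or 2 (adjusted p = 0.0638 and 0.0692). B cell markers, another cell type known for Tlr9, summed to 4.34–24.3 CPM in peritoneal, 63.3–75.2 in choroid plexus, 39–55.5 in MHC II-high dura, 32.3–39.5 in MHC II-low dura and 31.2–45.6 CPM in microglia libraries. Of those 6 markers Pax5 had 0 counts in the brain populations and Cd79b was the highest. Plasmacytoid dendritic cell markers summed to 1210–1460 CPM in microglia and 0.586–170 CPM elsewhere, with Siglech, which microglia also express, the highest of the 5 in the brain populations and Spib in peritoneal macrophages. Klk1 was at 0 in every population. The part of such cells in the Tlr9 level was not tested.

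Surface and endosomal receptors were set against each other per length, as TPM from union exon lengths, because CPM does not compare genes of different length. In peritoneal macrophages the 5 endosomal receptors made up 62.5, 64.7, 57.6 and 67.6% of the summed level of the 10. The shares were 38.9, 33.6, 32.6 and 36% in choroid plexus, 38.9, 39.4, 33.1 and 36.5% in MHC II-high dura, 45.5, 41.4, 40 and 44.4% in MHC II-low dura, and 52.1, 50.7, 49.4 and 57.2% in microglia. Peritoneal libraries were the highest and microglia next, with no overlap but a narrow gap (lowest peritoneal share 57.6%, highest microglia share 57.2%). MHC II-low dura libraries lay above the choroid plexus and MHC II-high libraries. The sums show which side moved. Endosomal receptors summed to 377 ± 70.1 TPM in peritoneal, 594 ± 92.5 in choroid plexus, 601 ± 28.8 in MHC II-high dura, 656 ± 87.5 in MHC II-low dura and 574 ± 118 TPM in microglia libraries (SD, n = 4 each). Surface receptors summed to 217 ± 15.1, 1090 ± 83.2, 1030 ± 86.4, 873 ± 50.3 and 516 ± 58.5 TPM in the same order. The endosomal sums of the 4 brain populations overlapped, and the surface sums of microglia and of the border populations did not. These shares are a description over the members and carry no test. They leave out the endosomal receptors Tlr11 and Tlr12, which are not among the 10. Tlr12 averaged 0.105 TPM in peritoneal, 47.7 in choroid plexus, 32.6 in MHC II-high dura, 10.8 in MHC II-low dura and 87.4 TPM in microglia libraries. The shares and the gap between peritoneal and microglia libraries thus depend on the members chosen.

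**Figure D3:**
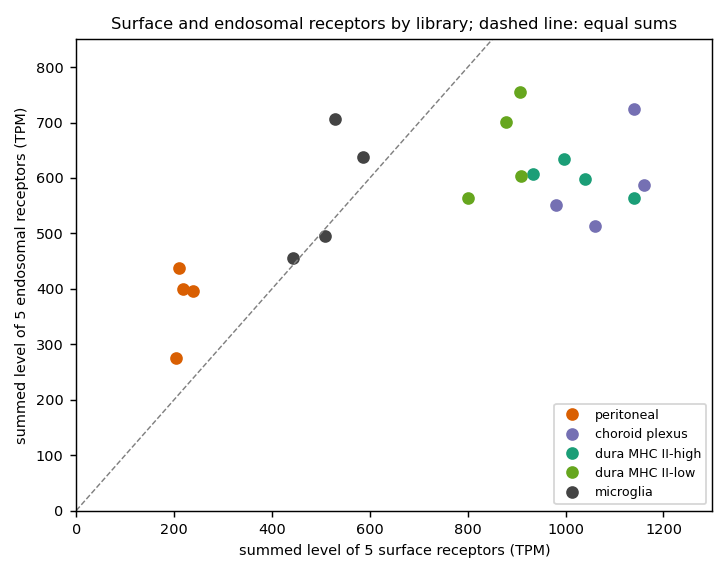
Summed level of the 5 surface receptors (x axis, TPM) against that of the 5 endosomal receptors (y axis, TPM) in each of the 20 libraries, coloured by population. Peritoneal libraries lie above the dashed line of equal sums, microglia close to it (endosomal share 49.4–57.2%), and the 3 border populations below it.

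Single receptors set much of these sums. Tlr13 was the highest receptor per length in all 4 peritoneal libraries, with 44.9 ± 2.77% of the sum, and Tlr2 was the highest in all 16 brain libraries. Tlr2 held 17.4 ± 1.87% in peritoneal, 50.2 ± 3.8% in choroid plexus, 44.8 ± 4.8% in MHC II-high dura, 36.8 ± 3.23% in MHC II-low dura and 31.6 ± 3.57% in microglia libraries (SD, n = 4 each). Tlr7 held 11.8–13.6% of the sum on average in peritoneal, choroid plexus and MHC II-high dura libraries, 18.5 ± 0.69% in MHC II-low dura and 22.8 ± 2.31% in microglia. Without Tlr13 the mean endosomal share was 33.2% in peritoneal, 22% in choroid plexus, 27.1% in MHC II-high dura, 33.4% in MHC II-low dura and 39% in microglia libraries, so that microglia and not peritoneal macrophages had the highest share.

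**Figure D4:**
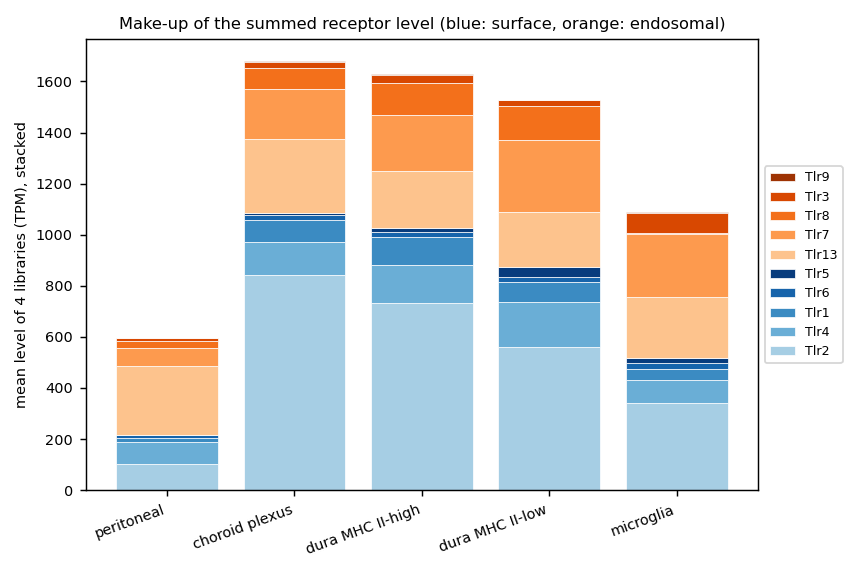
Mean level of each receptor (TPM, n = 4 libraries, bars stacked from 0) in the 5 populations, with surface receptors in blue and endosomal receptors in orange. Tlr2 makes up the largest block in the brain populations and Tlr13 in peritoneal macrophages.

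The other genes of the pathway were read from a list of 55 symbols, of which 54 were in the files and all 54 were tested. In peritoneal macrophages 4 genes were called higher and 14 lower than in choroid plexus macrophages, 7.41% and 25.9% of the list beside 12.6% and 24.1% of all genes. Against MHC II-high dura 2 were higher and 15 lower (3.7% and 27.8%, beside 9.18% and 20.1% of all genes), and against MHC II-low dura 4 and 14 (7.41% and 25.9%, beside 11.9% and 20%). Against microglia 9 were higher and 19 lower (16.7% and 35.2%, beside 18.9% and 25.7%). The shares called lower were thus near those of all genes against choroid plexus, and list medians lay between -0.33 and -0.21 on the log2 scale. Among brain populations 0 genes were higher and 3 lower in choroid plexus than in MHC II-high dura, 0% and 5.56% beside 5.87% and 4% of all genes (unadjusted p under 0.05 for 11 and 18, DESeq2 calls 0 and 3). Choroid plexus against MHC II-low dura gave 2 and 3 (3.7% and 5.56%, beside 8.63% and 4.18%), and against microglia 7 and 6 (13% and 11.1%, beside 12.1% and 7.11%). MHC II-high against MHC II-low dura gave 1 and 1 (1.85% each, beside 2.39% and 1.48%). Against microglia, MHC II-high dura gave 9 and 5 (16.7% and 9.26%, beside 15.7% and 12.2%) and MHC II-low dura 9 and 10 (16.7% and 18.5%, beside 13.8% and 12.7%).

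Of the 7 chaperone and trafficking genes, Unc93b1 and Slc15a4 were lower in peritoneal macrophages than in each brain population. Against each border population 2 of 7 were called lower, 28.6% beside 24.1%, 20.1% and 20% of all genes for choroid plexus, MHC II-high and MHC II-low dura. Against microglia 3 were called lower, 42.9% beside 25.7% of all genes. Unc93b1, which carries the endosomal receptors to endosomes, averaged 831 CPM in peritoneal, 2820 in choroid plexus, 2330 in MHC II-high dura, 2290 in MHC II-low dura and 2730 CPM in microglia libraries. Slc15a4, a lysosomal transporter needed for Tlr7 and Tlr9 signalling, averaged 50 CPM in peritoneal, 145 in choroid plexus, 122 in MHC II-high dura, 111 in MHC II-low dura and 193 CPM in microglia libraries. Neither passed the call rule between brain populations. Hsp90b1, the chaperone of most Toll-like receptors, ran the other way. It averaged 1390 CPM in peritoneal, 605 in choroid plexus, 746 in MHC II-high dura, 688 in MHC II-low dura and 826 CPM in microglia libraries. Hsp90b1 was called higher in peritoneal than in choroid plexus macrophages. Against MHC II-low dura its call was at the edge of the 2-fold limit (1.02 ± 0.09, adjusted p = 4.21e-09). The gene 5430427O19Rik was lowest in microglia, at a mean of 14.2 CPM. It averaged 47.9 CPM in peritoneal, 55.3 in choroid plexus, 63 in MHC II-high dura and 49.9 CPM in MHC II-low dura libraries. It was called higher in peritoneal macrophages than in microglia.

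Of the 4 proteases that process endosomal receptors, Lgmn, Ctsl and Ctss had their highest mean in microglia. Ctsb (cathepsin B) ran the other way, with its lowest mean in microglia, 4280 CPM. It averaged 4420 CPM in peritoneal, 5690 in choroid plexus, 7720 in MHC II-high dura and 9490 CPM in MHC II-low dura libraries. In MHC II-low dura macrophages Ctsb was called higher than in microglia, beside 13.8% of all genes. Against microglia 3 of the 4 were called lower in peritoneal macrophages, 1 in choroid plexus, 2 in MHC II-high dura and 3 in MHC II-low dura. The shares of all genes called lower were 25.7%, 7.11%, 12.2% and 12.7% in the same order. Lgmn (asparagine endopeptidase) averaged 435 CPM in peritoneal, 2350 in choroid plexus, 1650 in MHC II-high dura, 2040 in MHC II-low dura and 4320 CPM in microglia libraries, and was lower in peritoneal macrophages than in microglia by -3.31 ± 0.12 on the log2 scale (adjusted p = 3.45e-15). Ctsl (cathepsin L) was lower than in microglia in choroid plexus (-1.93 ± 0.13, adjusted p = 2.41e-10) and MHC II-high dura macrophages (-2.22 ± 0.13, adjusted p = 2.05e-11). It was also the gene of the list called lower in MHC II-high than in MHC II-low dura macrophages (-1.03 ± 0.13, adjusted p = 2.02e-05), a difference that fell under 2-fold without MHC II-high replicate 1 or 4 or MHC II-low replicate 3. Ctss (cathepsin S) was higher in choroid plexus than in MHC II-low dura (1.16 ± 0.16, adjusted p = 1.5e-05) and lower in MHC II-low dura than in microglia (-1.55 ± 0.16, adjusted p = 7.66e-08).

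Of the 6 co-receptors and ligand-binding partners, Cd36 separated microglia most. Cd180 and Ly86 were highest in microglia, at means of 92.4 and 739 CPM against 36–46.6 and 269–525 CPM elsewhere. Against microglia 3 of 6 were called higher and 2 lower in peritoneal macrophages, and 2 and 1 in choroid plexus. The counts were 3 and 0 in MHC II-high dura and 3 and 1 in MHC II-low dura. Of all genes, 18.9% and 25.7%, 12.1% and 7.11%, 15.7% and 12.2%, and 13.8% and 12.7% were called in the same order. Cd36, a scavenger receptor that works with Tlr2 and Tlr6, averaged 878 CPM in peritoneal, 308 in choroid plexus, 697 in MHC II-high dura and 786 in MHC II-low dura libraries, against 1.18 CPM in microglia. It was higher in MHC II-high dura than in microglia by 9.21 ± 0.33 (adjusted p = 2.45e-14), and lower in choroid plexus than in MHC II-high dura (-1.18 ± 0.22, adjusted p = 0.000974). Cd14, which hands lipopolysaccharide to Tlr4, averaged 609 CPM in peritoneal macrophages, 1970 in choroid plexus, 1690 in MHC II-high dura, 1540 in MHC II-low dura and 673 CPM in microglia. It was called lower in peritoneal than in each border population, and higher in each of those than in microglia. Ly96, the lipopolysaccharide-binding partner of Tlr4, averaged 28.5 CPM in peritoneal, 21.5 in choroid plexus, 33.9 in MHC II-high dura and 30.9 in MHC II-low dura libraries, against 13.8 CPM in microglia. Lbp, the serum protein that brings lipopolysaccharide to Cd14, was higher in peritoneal macrophages than in MHC II-high dura by 4.58 ± 0.95 (adjusted p = 0.000667).

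Of the 5 adaptors, 0 were called higher in any comparison. Lower calls in peritoneal macrophages were 1 of 5 against choroid plexus, 1 against MHC II-high dura, 0 against MHC II-low dura and 2 against microglia, where 24.1%, 20.1%, 20% and 25.7% of all genes were called lower. In MHC II-low dura 2 of 5 were lower than in microglia, beside 12.7% of all genes, and the other 5 comparisons had 0. The adaptors called were Ticam1 and Sarm1, named after their values were seen. Ticam1 averaged 11.8 CPM in peritoneal, 18.8 in choroid plexus, 16.4 in MHC II-high dura, 12.4 in MHC II-low dura and 28.1 CPM in microglia libraries. Sarm1, a negative regulator of TRIF signalling, was low throughout, at 0.246–3.57 CPM on average. Myd88 averaged 91.3 CPM in peritoneal, 106 in choroid plexus, 128 in MHC II-high dura, 123 in MHC II-low dura and 104 CPM in microglia libraries and was called in no comparison. Of the 14 kinases and ligases, 1 was called higher (7.14%) and 2 lower (14.3%) in peritoneal macrophages than in each border population. Beside these stood 12.6% and 24.1% of all genes for choroid plexus, 9.18% and 20.1% for MHC II-high and 11.9% and 20% for MHC II-low dura. Against microglia 3 were higher and 2 lower (21.4% and 14.3%, beside 18.9% and 25.7%). Irak2 and Tab2 were lower in peritoneal macrophages, at 35 and 14.2 CPM against 106–206 and 28.8–39 CPM elsewhere. Ikbke, an interferon-inducing kinase, was the widest. It averaged 71.2 CPM in peritoneal macrophages, against 0.775 in choroid plexus, 4.29 in MHC II-high dura, 3.75 in MHC II-low dura and 0.348 CPM in microglia, and was higher in peritoneal macrophages than in choroid plexus by 6.51 ± 0.4 (adjusted p = 2.67e-11).

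Of the 8 transcription factors, 1 was called higher and 4 lower in peritoneal macrophages than in microglia, 1 and 2 in choroid plexus, 1 and 1 in MHC II-high dura and 1 and 2 in MHC II-low dura. Of the 8 inhibitors the counts against microglia were 1 and 2, 1 and 2, 1 and 1, and 1 and 1 in the same order of populations. Of all genes, 18.9% were higher and 25.7% lower in peritoneal macrophages, 12.1% and 7.11% in choroid plexus, 15.7% and 12.2% in MHC II-high dura and 13.8% and 12.7% in MHC II-low dura, so that 1 of 8 is near the background in the dura. Tnfaip3, which encodes the inhibitor A20, averaged 14.2 CPM in peritoneal, 229 in choroid plexus, 680 in MHC II-high dura, 538 in MHC II-low dura and 1040 CPM in microglia libraries. Nfkbia, the NF-kappa B inhibitor alpha, averaged 201 CPM in peritoneal, 789 in choroid plexus, 691 in MHC II-high dura, 600 in MHC II-low dura and 1690 CPM in microglia, and was lower in MHC II-low dura than in microglia (-1.49 ± 0.21, adjusted p = 7.85e-06). Rel was lower in choroid plexus than in microglia (-1.44 ± 0.27, adjusted p = 0.00026) and Nfkb1 lower in MHC II-high dura than in microglia (-1.35 ± 0.12, adjusted p = 7.23e-09). The inhibitor Irak3 ran the other way, at 50.5 CPM in peritoneal, 30.6 in choroid plexus, 32.7 in MHC II-high dura and 26.8 in MHC II-low dura against 3.42 CPM in microglia, and was called higher in each. Irf7, an interferon regulator downstream of Tlr7 and Tlr9, was higher in MHC II-high dura than in microglia (3.25 ± 0.93, adjusted p = 0.00779), with overlapping libraries. The difference was 4.97 without microglia replicate 5, the library with the highest interferon gene sum of its population, and 2.73 without MHC II-high replicate 1. Irf7 was also called higher in choroid plexus than in microglia (2.37 ± 0.9, adjusted p = 0.0444), a call lost when any 1 of 13 libraries was left out, among them each of the 4 choroid plexus libraries (adjusted p 0.0674–0.0809). Without microglia replicate 5 it was 4.1 (adjusted p = 0.00127), and without any other microglia library 1.98–2.01.

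Of the other mouse Toll-like receptors, Tlr12 averaged 0.105 CPM in peritoneal, 49.5 in choroid plexus, 33.8 in MHC II-high dura, 10.2 in MHC II-low dura and 82.9 CPM in microglia libraries. Tlr11 and Tlr12 are endosomal receptors for profilin of parasites. Tlr12 was higher in MHC II-high than in MHC II-low dura (1.72 ± 0.28, adjusted p = 0.000495) and lower in peritoneal macrophages than in microglia (-9.49 ± 0.46, adjusted p = 1.3e-12). Peritoneal macrophages had 12 reads of it in all. Tlr11 averaged at most 7.02 CPM in any population.

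**Figure D5:**
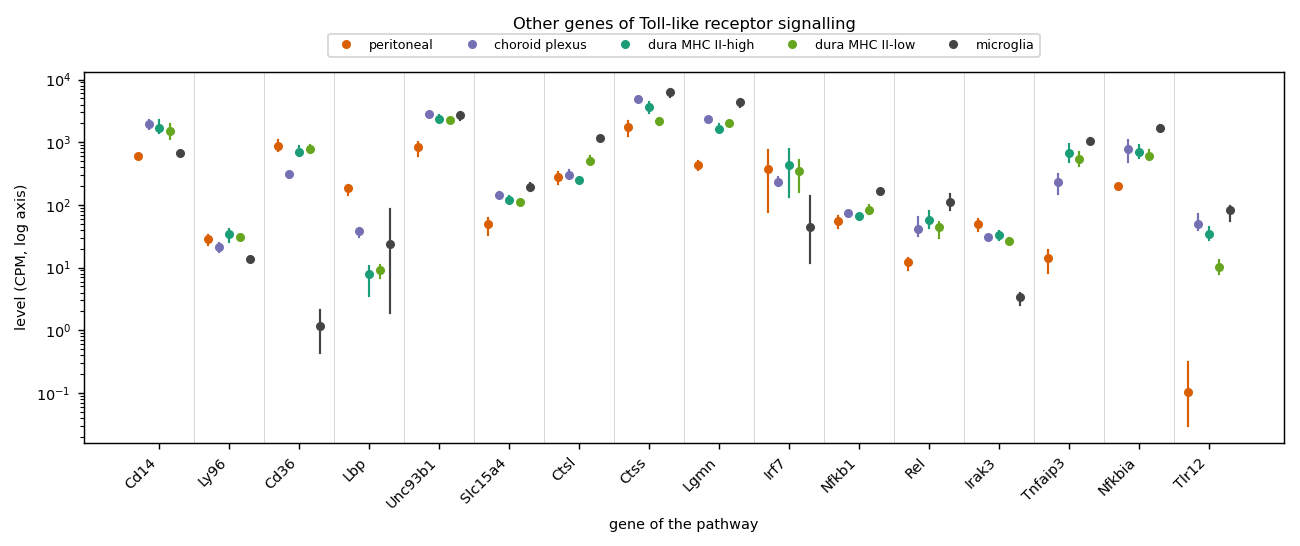
Mean level (points) and range over 4 libraries (lines) of 16 pathway genes in CPM (log axis) in the 5 populations. Cd36 and Irak3 are lowest in microglia, and Unc93b1, Lgmn, Tnfaip3 and Tlr12 in peritoneal macrophages. The lower end of the Tlr12 line in peritoneal macrophages stands for 0.

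Likeness to other genes was measured as Pearson's r of log2(CPM + 0.5) over the 20 libraries among 9412 genes, for the 7 receptors called in a comparison. The points share populations, so r mostly reflects the 5 population levels, and it is given as a description. Tlr1 was most like Lcp1, Lst1 and Cd72 (r = 0.976, 0.975 and 0.973), and Tlr2 most like Il1b, Pea15a and Cd72 (r = 0.992, 0.987 and 0.984). Tlr5 was most like Slc40a1, Slc11a2 and Slc37a2 (r = 0.985, 0.977 and 0.974), and Tlr7 most like Slc37a2, Ctns and Arhgef2 (r = 0.978, 0.975 and 0.975). Tlr8 was most like Rftn1, Nlrc4 and Aoah (r = 0.986, 0.984 and 0.984). Tlr3 was most like Bicd2, Frmd4a and Cnot2 (r = 0.958, 0.948 and 0.938), and Tlr9 most like Ermap, Tspan33 and Coro1a (r = 0.961, 0.953 and 0.951). Of these genes, Il1b encodes the cytokine interleukin-1 beta, Slc40a1 the iron exporter ferroportin, and Nlrc4 an inflammasome protein. Among the receptors themselves, Tlr5 with Tlr7 (r = 0.97) and Tlr1 with Tlr2 (r = 0.95) were the most alike. The neighbours Tlr7 and Tlr8 had r = 0.03, and Tlr3 and Tlr8 had r = -0.58. Both values include the 4 microglia libraries, which held 3 reads of Tlr8 in all. In the other populations Tlr8 averaged 0.378–0.559 times the level of Tlr7 per length, and r without microglia was not measured.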

How the data were processed

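RNA of 20 mouse macrophage samples was sequenced, 4 per population. The authors deposited raw read counts, 1 whole number for each of 24421 gene symbols. Lines for reads outside genes (5.67–13.1% in no feature, 0.836–1.51% ambiguous) stayed out of library sizes. The submitters' processing notes name mm10 and, as tools, SAMtools 0.1.18, TopHat2 2.1.0, Trimmomatic 0.38 and FastQC 0.11.4. Which counter, annotation and strand setting they used is not given in the sources used here.

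Samples were grouped by their cell type labels. All 20 libraries were fitted in edgeR 4.0.16 (R 4.3.3) with 1 mean per population, filterByExpr, TMM factors (0.923–1.05) and the robust quasi-likelihood F test with 15 residual degrees of freedom, in 10 pairwise comparisons. A positive log2 fold change is a higher level in the first population of a pair. TPM used union exon lengths of GENCODE M21, which matched 23384 symbols. DESeq2 1.42.0 and other settings were alternatives. The fit was tested on simulated data. Figures were drawn with matplotlib 3.10.9. Intervals have 95% confidence, and like the floor of 3 counts they cover counting error alone, since reads are not independent molecules.

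The members and the gene lists were chosen with earlier results of these data known. Of the pathway list, up to 3 largest called fold changes in each direction and comparison, at 10 CPM or more in the higher population, were named by rule. Unc93b1, Slc15a4, 5430427O19Rik, Ctsb, Cd14, Ly96, Cd180, Ly86, Myd88, Ticam1, Sarm1, Irak2, Tab2 and Tlr11 were added after their values were seen. Likeness names the 3 genes of highest r among those at 10 CPM or more in a population.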

Additional observations from a re-analysis of the deposited data

Results flagged for a closer look

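In 3 cases 1 library stood far from the other 3 of its population, by the gap to its nearest neighbour relative to the population's whole range. Of the 55 sets of 4 libraries examined, chance gives about 1 in 20 for normally spread values, so several such cases can arise by chance. Where 3 libraries have 0 reads and 1 has any, the measure is always at its maximum of 1, as for Tlr8 and Tlr9 below. Tlr5 was at 1.54 CPM in peritoneal replicate 4, against 0.401–0.517 CPM in the other peritoneal libraries. Tlr8 was at 0.188 CPM in microglia replicate 1, from 3 reads, against 0 in the other microglia. Tlr9 was at 0.138 CPM in peritoneal replicate 1, from 4 reads, against 0 in the other peritoneal libraries.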

How the results depend on the processing

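Of the alternative values for the receptors' log2 fold changes, 2635 kept direction and call, 14 lost the call, 6 gained it and 35 changed sign, the last in differences that were not called. For the named pathway genes 1295 kept the call and 25 lost it. Median-of-ratios size factors moved none of the counts by over 1.5 times. Without the 2-fold limit, calls rose by construction. All genes were then 3768 higher for peritoneal over choroid plexus, 3183 higher and 4398 lower over MHC II-high dura, 3487 and 4549 over MHC II-low dura and 4430 higher over microglia. They were 1803 and 1863 for choroid plexus over MHC II-high dura, 2210 and 1863 over MHC II-low dura and 3429 and 2485 over microglia. They were 806 and 724 between the dura populations, and 4103 and 3362 for MHC II-high and 3860 and 3263 for MHC II-low dura over microglia. Receptors called without the limit were 1 higher for peritoneal over MHC II-low dura, 1 lower for choroid plexus over MHC II-high dura, 3 higher and 2 lower over MHC II-low dura and 5 and 2 over microglia, 2 and 1 between the dura populations and 5 higher for MHC II-low dura over microglia. Pathway genes were 13 and 25 for peritoneal over choroid plexus, 9 and 26 over MHC II-high dura, 10 and 27 over MHC II-low dura and 15 higher over microglia. They were 6 and 13 for choroid plexus over MHC II-high dura, 9 and 14 over MHC II-low dura and 13 and 19 over microglia, 4 and 2 between the dura populations, 19 and 19 for MHC II-high and 17 and 21 for MHC II-low dura over microglia.

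A filter of 10 CPM in 4 libraries tested fewer genes. All genes called lower were then 1716, 1518, 1610 and 2011 for peritoneal over choroid plexus, MHC II-high dura, MHC II-low dura and microglia. Choroid plexus gave 392 higher and 322 lower over MHC II-high dura, 570 and 384 over MHC II-low dura and 1124 higher over microglia, and the dura populations over microglia gave 1403 and 1086 for MHC II-high and 1261 and 1055 for MHC II-low. Tlr9 was not tested there, which left 0 receptors higher for choroid plexus over MHC II-low dura and 1 lower for MHC II-low dura over microglia. DESeq2 called 1 pathway gene higher for peritoneal over MHC II-high dura, 4 for choroid plexus over MHC II-low dura and 2 between the dura populations, and 8 lower for MHC II-high dura over microglia. Fits of the 8 libraries of a pair called 1 pathway gene higher for choroid plexus over MHC II-high dura, 4 over MHC II-low dura and 2 between the dura populations; the cause was not tested.

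Across all genes, deviations from the population means correlated at -0.15 to 0.12 over 36 same-numbered pairs, against -0.19 to 0.23 over 124 others, so the replicate numbers were not taken to pair the libraries. Single genes and gene sets can still follow the number: interferon gene sums of replicates 1 to 4 were 3180, 1060, 2210 and 1960 CPM in MHC II-high dura and 2840, 1140, 2120 and 1990 CPM in MHC II-low dura. Tlr3 had the same order of replicates in the dura, at 63.3, 39.7, 60.1 and 47.7 CPM in MHC II-high and 53.5, 21.4, 41.2 and 37.5 CPM in MHC II-low. In each same-numbered dura pair MHC II-high was the higher for Tlr3. Peritoneal and choroid plexus libraries had other orders of Tlr3. With a replicate block, 0 receptors were higher for choroid plexus over MHC II-low dura (Tlr9, 1.57, adjusted p = 0.0502) and 0 lower for MHC II-high dura over microglia (Tlr3, -0.88, adjusted p = 0.00159), Tlr4 for MHC II-low dura over microglia passed 2-fold (1.03), and Tlr4 for peritoneal and Tlr7 and Tlr13 for MHC II-high dura over microglia turned to 0.1.

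With 1 library left out, receptor counts ranged 0–1 higher for choroid plexus over MHC II-low dura, 0–1 lower between the dura populations, and 1–3 higher and 1–2 lower for MHC II-low dura over microglia, from the libraries named with Tlr4, Tlr5 and Tlr9. Pathway counts ranged 0–1 higher for choroid plexus over MHC II-high dura (1 without any microglia library), 2–4 over MHC II-low dura (4 without MHC II-high replicate 2 or microglia replicate 3), and 0–1 lower between the dura populations (Ctsl). Folds that turned sign ranged -0.18 to 0.07 for Tlr4 in peritoneal over microglia, -0.05 to 0.1 for Tlr6 and choroid plexus over MHC II-high dura, -0.07 to 0.07 for Tlr6 and -0.18 to 0.22 for Tlr3 over MHC II-low dura (-0.01 for both with no filter), and -0.13 to 0.19 for Tlr9 over microglia (-0.01 in the fit of the pair). Between the dura populations they ranged -0.15 to 0.05 for Tlr4, -0.08 to 0.04 for Tlr6 (0.05 at equal depth) and -0.03 to 0.16 for Tlr8, and for MHC II-high dura over microglia -0.19 to 0.02 for Tlr7 and -0.17 to 0.06 for Tlr13.

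The endosomal share without Tlr13 was 33.2% in peritoneal, 22% in choroid plexus, 27.1% in MHC II-high dura, 33.4% in MHC II-low dura and 39% in microglia libraries. Without length scaling it was 40.2% in choroid plexus, 41% in MHC II-high dura, 45.7% in MHC II-low dura and 57% in microglia, and with coding lengths 39.9% in MHC II-low dura. Depth limits Tlr8 in microglia and Tlr5 and Tlr9 in peritoneal macrophages.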

Other observations

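Replicate 1 had the highest level of 6 or 7 of the 10 receptors within each of the 5 populations: 6 in peritoneal, 6 in choroid plexus, 7 in MHC II-high dura, 6 in MHC II-low dura and 6 in microglia libraries. Tlr4 was highest in replicate 1 of all 5 populations, and Tlr8 likewise. In microglia, however, Tlr8 had 3 reads in replicate 1 and 0 in the others. The peritoneal count likewise includes Tlr9, with 4 reads in replicate 1 and 0 in the others. Replicate 1 also had the highest interferon gene sum in peritoneal (1240 CPM), MHC II-high dura (3180 CPM) and MHC II-low dura libraries (2840 CPM). In microglia the highest sum was in replicate 5 (1120 CPM), and in the choroid plexus in replicate 4 (1650 CPM). The pattern was noticed in the data and was not tested.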
